A study of Homo sapiens with 6 samples.

Results

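The segment of chromosome 4 between positions 153000000 and 171000000 (GRCh38) held 2972 of the 75701 ATAC-seq regions of the series, and the rest of the chromosome held 3561. Its members are the peaks of the 6 deposited lists whose midpoint lay between those borders, merged where they shared at least 1 bp. The segment was chosen by its measured peak density in the same lists, from bins of 1 Mb that averaged at least 60 peaks over the lists, so its density and the strength of its peaks against the rest of the chromosome, and the difference between genotypes in either, are given as descriptions with no test. Within the borders 9 of the 18 bins reached that mean and the others ranged down to 29.7 peaks. The bins just inside the borders averaged 79.2 and 62.3 peaks over the 6 lists, and the bins just outside averaged 53.5 and 7.67.

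The libraries came from ARP1, a human multiple myeloma cell line, a cancer line of the antibody-secreting plasma cell. The comparison is of 3 libraries from cells in which KDM6A was knocked out with 3 libraries from wild-type cells, and the labels name no treatment. Replicates are numbered as biological ones in the labels, with neither culture nor clone given. The p-values therefore measure no more than the spread among the 6 libraries, and whether the knockout is 1 clone is not given in the sources used here. Of the 7 plasma cell marker genes with a recorded start, 6 (SDC1, IRF4, PRDM1, XBP1, MZB1 and CD38) had a start peak in all 6 lists, while the start of JCHAIN was called in 0 knockout and 1 wild-type lists. The starts of the T cell, monocyte, erythroid and hepatocyte markers CD3D, CD2, CD14, CSF1R, GATA1 and ALB were called in 0 lists. Of all coding genes with a recorded start, 56.2% had a start peak in all 6 lists and 36.5% in none.

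In ATAC-seq the Tn5 transposase cuts open DNA, and stretches where cuts pile up are reported as peaks with a fold over a background. Open chromatin is usually strongest at the CpG-rich starts of active genes and weaker at enhancers between and inside genes. KDM6A is a demethylase that removes a silencing methyl mark from histone H3, and it works within enhancer-activating complexes. The settings of the peak caller are not stated. In these lists the folds below 100 were whole multiples of a step particular to each library, so they are relative to a background for the library as a whole. Whether reads in general were more frequent in the segment, and their part in its weak peaks, was not tested.

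The segment held a mixed set of 62 protein-coding genes, among them the fibrinogen cluster, both subunits of soluble guanylate cyclase, a cluster of neuropeptide Y receptors, antiviral helicases, a sterol synthesis enzyme and long neural genes. Starts of 5 genes are shown because they span the calls that were made: MSMO1 and TMEM192 had the strongest start peaks in the segment, TRIM75 and SMIM31 were called in the wild-type lists alone, and LRAT had no peak at its recorded start in any list. Each is RefSeq sequence of GRCh38.p14 from 250 bases before to 50 after the recorded start, read 5′ to 3′ on the gene's strand. The windows are chr4:165327419-165327718 on the plus strand for MSMO1, chr4:165112811-165113110 on the minus strand for TMEM192, chr4:165053616-165053915 on the plus strand for TRIM75, chr4:164753881-164754180 on the plus strand for SMIM31 and chr4:154743750-154744049 on the plus strand for LRAT. Capitals mark matches on either strand to 5 motifs. These are the TATA box core (letters TATAAA), the box with the letters CCAAT, the GC box (letters GGGCGG), the ETS core (letters TTCCGG) and the E-box (letters CACGTG).
MSMO1: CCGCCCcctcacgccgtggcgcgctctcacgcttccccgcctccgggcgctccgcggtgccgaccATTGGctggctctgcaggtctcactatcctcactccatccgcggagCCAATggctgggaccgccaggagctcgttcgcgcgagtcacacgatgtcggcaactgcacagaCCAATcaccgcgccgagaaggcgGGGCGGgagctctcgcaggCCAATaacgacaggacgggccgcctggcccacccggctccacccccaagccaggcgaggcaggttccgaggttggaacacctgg
TMEM192: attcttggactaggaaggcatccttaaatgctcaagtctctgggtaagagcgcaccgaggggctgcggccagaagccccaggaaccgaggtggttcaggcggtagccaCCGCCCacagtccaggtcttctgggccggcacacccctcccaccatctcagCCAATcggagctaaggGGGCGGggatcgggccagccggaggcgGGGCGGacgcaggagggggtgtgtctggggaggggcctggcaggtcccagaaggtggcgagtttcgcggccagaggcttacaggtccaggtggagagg
TRIM75: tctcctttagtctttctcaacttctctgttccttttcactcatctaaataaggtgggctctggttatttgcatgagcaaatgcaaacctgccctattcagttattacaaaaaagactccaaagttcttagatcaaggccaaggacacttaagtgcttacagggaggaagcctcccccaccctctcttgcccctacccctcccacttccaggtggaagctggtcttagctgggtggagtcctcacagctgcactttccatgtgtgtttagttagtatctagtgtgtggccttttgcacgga
SMIM31: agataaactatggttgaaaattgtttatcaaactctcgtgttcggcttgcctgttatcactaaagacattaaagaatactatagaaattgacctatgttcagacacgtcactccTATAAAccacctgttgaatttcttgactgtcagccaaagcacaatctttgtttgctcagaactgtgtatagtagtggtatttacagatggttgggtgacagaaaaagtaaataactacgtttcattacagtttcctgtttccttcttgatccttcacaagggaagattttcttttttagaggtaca
LRAT: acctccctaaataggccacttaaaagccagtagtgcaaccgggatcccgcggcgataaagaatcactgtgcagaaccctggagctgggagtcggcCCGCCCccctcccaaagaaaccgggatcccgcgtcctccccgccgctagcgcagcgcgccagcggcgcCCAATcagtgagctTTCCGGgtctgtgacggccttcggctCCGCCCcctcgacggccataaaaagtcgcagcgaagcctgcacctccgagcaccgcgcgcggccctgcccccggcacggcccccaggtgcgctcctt

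The MSMO1 window was 69.7% G and C, with 33 CpG pairs, an observed over expected CpG ratio of 0.92, 4 CCAAT boxes and 2 GC boxes. The TMEM192 window held 66.0% G and C, 1 CCAAT box and 3 GC boxes. The TRIM75 window had 1 CpG pair, a CpG ratio of 0.062 and no match to any of the motifs, and the SMIM31 window was 35.7% G and C with 1 TATA box core. The uncalled LRAT window was as CpG-rich as the strongest starts, at 67.3% G and C with a CpG ratio of 0.976, and held 1 CCAAT box, 2 GC boxes and 1 ETS core. A match is a description of letters and not a bound site.

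Across the segment, 85 start windows of coding genes were on record, since some genes have several. The 33 starts called in all 6 lists had a median of 63.3% G and C and a CpG ratio of 0.886, and the 40 starts called in none had 54.5% and 0.554. In the rest of chromosome 4 the same medians were 66.5% and 0.878 for the 454 starts called in all lists and 48.7% and 0.333 for the 365 called in none. A GC box was present in 25 of the 33 called starts and 18 of the 40 uncalled starts of the segment, against 56.3% of all 22199 coding starts. A CCAAT box was present in 14 called and 18 uncalled starts (34.7% of all starts), an ETS core in 9 called and 3 uncalled (21.2%), an E-box in 4 called and 3 uncalled (8.34%), and a TATA box core in 1 called and 7 uncalled (9.47%).

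The segment carried many more peaks per Mb than the rest of the chromosome in both genotypes, and the excess was larger in wild-type lists. The knockout lists had 442, 500 and 545 peaks in the segment, and the wild-type lists had 1725, 1405 and 1879. Every knockout list lay below every wild-type list. In the segment that is 27.5 ± 2.87 peaks per Mb in knockout lists and 92.8 ± 13.4 in wild-type lists (SD, n = 3 each), and in the rest of the chromosome 8.85 ± 0.59 in knockout lists and 15.9 ± 0.78 in wild-type lists. The ratio of segment to rest was 2.91, 2.92 and 3.53 in the knockout lists and 6.17, 5.06 and 6.20 in the wild-type lists. The segment, 18 Mb against 172 Mb in the rest, thus took 24.5% ± 2.11 of the chromosome 4 peaks in knockout lists and 37.7% ± 2.70 in wild-type lists. For single lists the Wilson 95% intervals of that share, which cover counting error only, ran between 21.5% and 29.0% in knockout lists and between 33.2% and 40.7% in wild-type lists.

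The log2 of the density ratio averaged 1.64 in knockout lists and 2.53 in wild-type lists, a difference of −0.90 (SE 0.13). The 6-list mean behind the choice of the segment leans to the longer wild-type lists, so this difference draws on the values that chose the segment and is not tested. The sign of this difference depended on which peaks were counted. With every list shortened to the 33055 strongest peaks, the ratio was 2.69 in knockout lists and 2.14 in wild-type lists, a log2 difference of 0.32. Dividing the folds of the segment by the library's own ratio of gene-end folds, a measure of strong peaks, gave 1.32 in knockout lists and 1.27 in wild-type lists (log2 difference 0.057). There the genotypes overlapped, with 1.14 to 1.48 in knockout lists and 1.23 to 1.29 in wild-type lists. The lists themselves differed between genotypes, with 33055 to 37314 peaks in knockout lists and 54443 to 56048 in wild-type lists. The background pileup recovered from the fold steps was 2.05 to 2.56 reads in knockout lists and 3.11 to 3.77 in wild-type lists, and the lowest listed fold was 3.09 to 3.31 in knockout lists and 2.72 to 2.92 in wild-type lists. The part of this difference in depth and threshold in the genotype difference of density was not tested apart from the settings above.

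**Figure D1:**
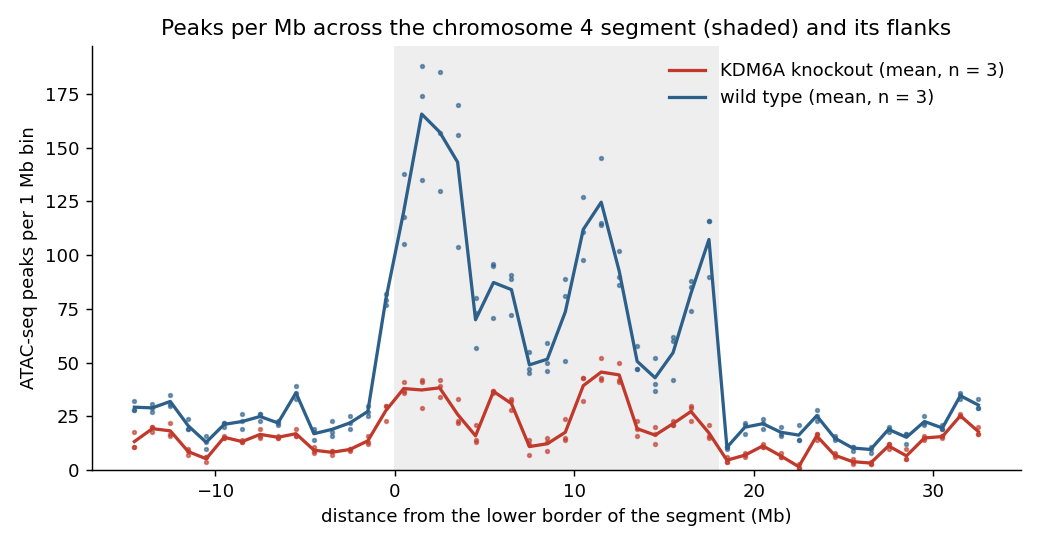
ATAC-seq peaks in bins of 1 Mb on the vertical axis against distance in Mb from the lower border of the segment, with lines for the mean of the 3 KDM6A knockout lists and of the 3 wild-type lists, points for single lists and the segment shaded. The knockout means inside the shaded stretch run from 11 to 45.7 peaks and the wild-type means from 43.0 to 165.7, with a steep edge on the upper side.

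Density varied several-fold within the segment, as the plot of peaks per Mb shows. The knockout lists were densest in chr4:164000001-165000000, which holds part of MARCHF1, at 45.7 ± 5.51 peaks, and sparsest in chr4:160000001-161000000, a bin with no coding gene, at 11 ± 3.61. The wild-type lists were densest in chr4:154000001-155000000, around the fibrinogen genes and the cadherin gene DCHS2, at 165.7 ± 27.5 peaks, and sparsest in chr4:167000001-168000000 at 43.0 ± 7.94. In all 18 bins the knockout mean was below the wild-type mean, from 16.1% of it in chr4:170000001-171000000 to 47.8% in chr4:165000001-166000000, with a median of 32.4%. The median over the 173 bins of the rest of the chromosome was 52.3%. Of those 173 bins, 2 reached the lowest wild-type mean of the segment and 48 reached its lowest knockout mean. Over the 18 bins the knockout and wild-type means had a Spearman rho of 0.75, and with the number of coding gene records the rho was 0.78 in knockout lists and 0.57 in wild-type lists. These are descriptions, since neighbouring bins share libraries and depth.

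The upper edge was sharp and the lower edge lay outside the stated border. In the last Mb of the segment the knockout lists had 17.3 ± 3.21 peaks and the wild-type lists 107 ± 15, while in the next Mb they had 4.67 ± 1.15 in knockout lists and 10.7 ± 0.58 in wild-type lists. In the 250 kb just inside the upper border there were 3, 4 and 4 peaks in knockout lists and 22, 21 and 25 in wild-type lists, against 0 in every knockout list and 2, 2 and 3 in the wild-type lists in the 250 kb beyond it. The last region called in all 6 lists, chr4:170978788-170980422, is 833 kb from GALNTL6, the nearest coding gene, and had folds of 10.5 ± 1.55 in knockout lists and 23.1 ± 0.70 in wild-type lists. Beyond it, chr4:170991061-170991718 had 0 calls in knockout lists and folds of 7.26, 9.96 and 6.92 in wild-type lists. At the lower side the Mb before the border still had 27.7 ± 4.04 peaks in knockout lists and 79.3 ± 2.52 in wild-type lists, and the Mb before that had 13.7 ± 2.08 in knockout lists and 27.3 ± 2.52 in wild-type lists. The single raised stretch that best described each list in bins of 50 kb began at position 151750001 in all 3 knockout lists and at 151950001 or 152000001 in the wild-type lists. It ended at 170150000, 169650000 and 170500000 in the knockout lists and at 171000000 in all 3 wild-type lists. The first region after the lower border, chr4:153001182-153002377, lies 21.5 kb from FHDC1 and was called in 1 knockout list and all 3 wild-type lists.

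The excess lay both inside and outside genes. The segment had 3.44 coding genes per Mb and the rest of the chromosome 4.11, and gene records covered 37.8% of the segment and 36.7% of the rest. Inside coding genes of the segment there were 28.2 ± 2.74 peaks per Mb in knockout lists and 81.0 ± 11.6 in wild-type lists, and outside them 27.1 ± 2.95 in knockout lists and 99.9 ± 14.6 in wild-type lists. The same densities in the rest of the chromosome were 11.1 ± 0.68 in knockout lists and 18.2 ± 0.95 in wild-type lists inside genes, and 7.56 ± 0.55 in knockout lists and 14.6 ± 0.69 in wild-type lists outside them. Stretches with no coding gene kept a raised density. The longest, 2024 kb between RAPGEF2 and FSTL5 (chr4:159360174-161383896), had 16.1 ± 2.85 peaks per Mb in knockout lists and 64.9 ± 8.27 in wild-type lists. The 940 kb between FSTL5 and NAF1 had 21.3 ± 6.64 in knockout lists and 78.0 ± 20.9 in wild-type lists. The 858 kb that follow SPOCK3 had 11.7 ± 1.17 in knockout lists and 39.3 ± 7.5 in wild-type lists.

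Gene-end peaks, those less than 1 kb from either end of a coding gene, were 33 to 38 in the knockout lists and 52 to 58 in the wild-type lists of the segment. They made up 7.16% ± 0.64 of its peaks in knockout lists and 3.29% ± 0.42 in wild-type lists, a difference of 3.87 percentage points (SE 0.44) with the smallest p a two-sided exact permutation test over 20 labellings allows (p = 0.1, and 0.1 after Benjamini-Hochberg adjustment). Every knockout value was above every wild-type value. The share is of the segment's peaks, and their number both chose the segment and differed between genotypes. The test therefore cannot tell a difference at gene ends from that difference in number, and no conclusion is drawn from it. At equal list length the difference in share was −0.28 points (exact permutation p = 0.8). In the rest of the chromosome gene ends took 24.1% ± 1.77 of the peaks in knockout lists and 14.7% ± 0.83 in wild-type lists.

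Peaks of the segment were weaker and closer together than those of the rest. Their median fold was 5.35 ± 0.51 in knockout lists and 3.92 ± 0.19 in wild-type lists, and in the rest of the chromosome 7.47 ± 0.43 in knockout lists and 6.87 ± 0.37 in wild-type lists. The median distance between neighbouring peaks of the segment was 21.6 ± 2.06 kb in knockout lists and 6.63 ± 0.90 kb in wild-type lists, against 57.1 ± 3.35 kb in knockout lists and 34.3 ± 1.16 kb in wild-type lists in the rest. The longest stretch of the segment without a peak was 376 ± 113 kb in knockout lists and 110 ± 14.7 kb in wild-type lists. Median peak width was 555 ± 57.9 bp in knockout lists and 609 ± 35.1 bp in wild-type lists, and these ranges overlapped. Regions wider than 3 kb were 1.38% of the segment's regions and 2.42% of those in the rest.

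The excess was concentrated among the weakest peaks. Below a fold of 4 the segment had 7.02 ± 3.00 peaks per Mb in knockout lists and 49.7 ± 14.8 in wild-type lists, 10.6 times the density of the rest in knockout lists and 21.2 times in wild-type lists. Between 4 and 6 the ratio was 3.81 ± 0.11 in knockout lists and 5.38 ± 0.91 in wild-type lists. Between 6 and 10 it was 1.93 ± 0.058 in knockout lists and 2.12 ± 0.22 in wild-type lists, and between 10 and 20 it was 1.69 ± 0.15 in knockout lists and 1.8 ± 0.11 in wild-type lists. From a fold of 20 upward the ratio was 3.04 ± 0.21 in knockout lists and 3.39 ± 0.49 in wild-type lists, above the bands between 6 and 20. In the 3 bands from a fold of 6 upward the ratios of knockout and wild-type lists overlapped, while in both bands below 6 every knockout list was below every wild-type list. With all peaks of a fold of at least 6 pooled they did not overlap, at 1.90 to 2.00 in knockout lists and 2.09 to 2.27 in wild-type lists.

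**Figure D2:**
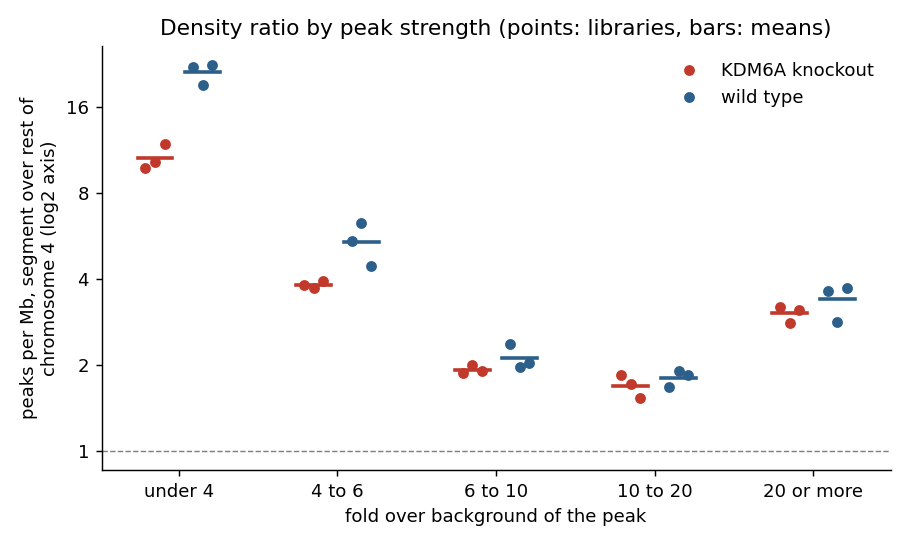
Ratio of peaks per Mb in the segment over the rest of chromosome 4 (vertical axis, log scale) in 5 bands of fold over background (horizontal axis), with a point per list, a bar for the mean, knockout lists on the left and wild-type lists on the right of each band. The ratio is 10.6 in knockout lists and 21.2 in wild-type lists under a fold of 4, and lowest between 10 and 20.

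Weak peaks also recurred less. Of the segment's regions, 54.2% (1610) were called in 1 list only, against 25.7% in the rest of the chromosome and 29.3% of all regions, and 1482 of those 1610 came from a wild-type list. Regions called in all 6 lists were 8.58% (255) of the segment and 30.4% of the rest. A peak of the segment under a fold of 4 was found in both other lists of its genotype in 8.16% ± 1.37 of cases in knockout lists and 18.5% ± 4.12 in wild-type lists. Such weak peaks recurred seldom in the rest too, at 14.8% ± 3.94 in knockout lists and 24.2% ± 5.63 in wild-type lists. For folds of 6 to 10 the segment had 88.2% ± 4.56 in knockout lists and 95.2% ± 1.73 in wild-type lists. The rest had 85.3% ± 8.35 in knockout lists and 93.7% ± 2.41 in wild-type lists. For folds of 20 or more it was 100% in both genotypes and both parts. The shares over all peaks that follow are over different mixes of folds. Over all segment peaks it was 53.8% ± 5.87 in knockout lists and 44.5% ± 6.68 in wild-type lists, against 74.5% ± 4.34 in knockout lists and 77.1% ± 4.03 in wild-type lists in the rest.

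**Figure D3:**
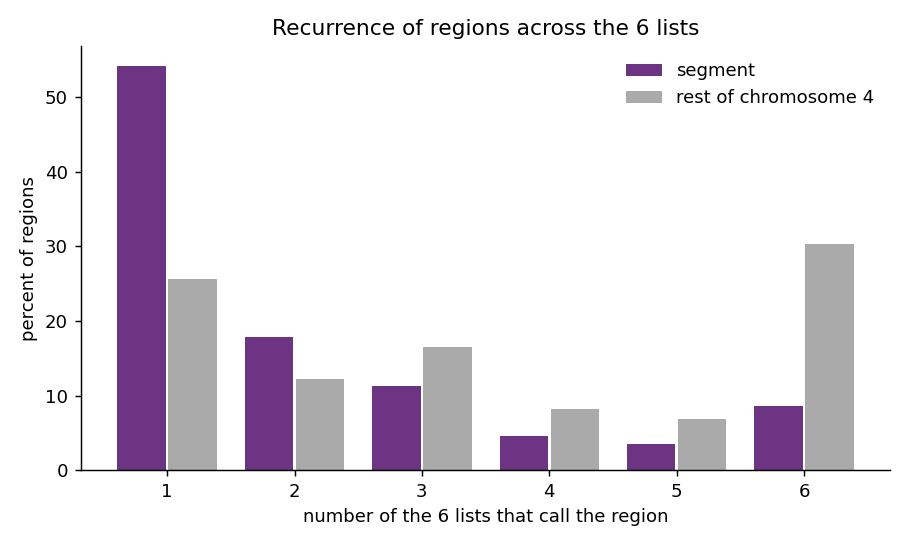
Percent of regions (vertical axis) by the number of the 6 lists that call them (horizontal axis), for the segment and for the rest of chromosome 4. Of the segment's regions 54.2% are called in 1 list and 8.58% in all 6, against 25.7% and 30.4% in the rest.

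Regions found by every wild-type list and by no knockout list, named WT-only here, took a larger share of the segment than of the rest when full lists were used. They numbered 240 of the 724 segment regions called in all 3 wild-type lists, which is 33.1%, against 23.6% in the rest of chromosome 4 and 17.3% of all regions. The converse, a call in every knockout list and no wild-type list, was made at 0 of the 257 segment regions called in all 3 knockout lists, against 0.39% of all such regions. The nearest case, chr4:164588938-164589454, was called in 2 knockout lists at a mean fold of 3.92. The WT-only regions were weak: their median wild-type fold was 4.14, against 13.8 for segment regions called in all 6 lists and 5.61 for WT-only regions of the rest. Among regions of like strength the segment was above the rest only in the weakest band of percentiles. There, from 0 to 20 within the list, 70.3% of 165 segment regions were WT-only and 59.2% of 49 in the rest. Between 20 and 40 the shares were 50.9% in the segment and 62.9% in the rest, and between 40 and 60 they were 24.8% in the segment and 37.8% in the rest. From 60 to 80 they were 6.25% in the segment and 7.83% in the rest, and from 80 to 100 they were 0% in the segment and 0.53% in the rest. With lists of equal length 6.69% of segment regions were WT-only and 12.6% of the rest, and with folds of 4 or more 19.4% of segment regions and 21.8% of the rest. The number of WT-only regions rested on the wild-type lists, being 372 without wild-type replicate 1 and 470 without wild-type replicate 2.

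The strongest WT-only region, chr4:162010137-162011477, lies inside FSTL5, a gene for a secreted follistatin-like protein, with folds of 10.7, 11.2 and 13.0 in the wild-type lists. The next 2, chr4:166971850-166972668 and chr4:167100074-167100592, lie inside SPOCK3, a gene for a brain extracellular proteoglycan, with wild-type means of 10.8 ± 1.20 and 10.2 ± 0.57. The last of the 5 strongest, chr4:157648605-157649445 and chr4:157741577-157744019, lie 283 and 376 kb from GRIA2, an AMPA glutamate receptor gene, with wild-type means of 9.68 ± 0.46 and 8.94 ± 1.88. By position, 11.9% of the 42 regions at gene ends that all wild-type lists called were WT-only, against 33.7% of the 243 inside genes and 34.9% of the 439 outside genes. In the rest of chromosome 4 these shares were 4.24% at gene ends, 28.0% inside genes and 27.9% outside. Over all regions they were 2.64%, 23.1% and 22.3%, so a low share at gene ends is not particular to the segment.

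The strongest sites of the segment were mainly gene starts. Of the 10 strongest regions called in all 6 lists, 8 lay at starts of coding genes: MSMO1, TMEM192, C4orf46 (beside ETFDH), TMA16, GUCY1B1, NEK1, CLCN3 and PLRG1. The other 2 were far from any coding gene. The region chr4:160125156-160126881, which is 765 kb from RAPGEF2, had folds of 34.3, 40.3 and 36.5 in knockout lists and 69.2, 79.2 and 64.3 in wild-type lists. The region chr4:166579981-166580835, which is 152.5 kb from SPOCK3, had 38.8, 37.4 and 33.7 in knockout lists and 45.1, 45.0 and 46.9 in wild-type lists.

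A start peak in all 6 lists was found for 29 of the 56 coding genes with a recorded start (51.8%), against 56.2% of the coding genes of the genome and of the rest of chromosome 4. A further 6 genes had a start peak in some lists (10.7%, against 6.64% of all coding genes) and 19 in none (33.9%, against 36.5%). The other 2 were called in the wild-type lists alone (3.57%, against 0.68%), a share that rests on 2 genes. The segment's share of starts called in all lists was thus near that of the genome, while its peaks per Mb were not. Recorded starts were used for all but TMEM131L, CTSO, PDGFC, ETFDH, NAF1 and TRIM60. Start values are folds over each library's own background, from the strongest peak at a start of the gene.

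Among the metabolic genes, MSMO1, which encodes a demethylating oxidase of cholesterol synthesis, had the strongest start of the segment, at 69.8, 78.3 and 65.1 in knockout lists and 89.3, 112.5 and 85.5 in wild-type lists. CBR4, a mitochondrial carbonyl reductase gene, had 33.4, 33.8 and 28.1 in knockout lists and 49.5, 55.9 and 52.8 in wild-type lists. PPID, a cyclophilin gene, averaged 17.9 ± 1.44 in knockout lists and 27.0 ± 3.39 in wild-type lists. The starts of TDO2 (tryptophan breakdown), LRAT (retinol esterification), AADAT (an aminotransferase) and TKTL2 (a transketolase-like protein) had no peak in any list.

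Both subunits of soluble guanylate cyclase, the nitric oxide receptor, had starts called in all lists. GUCY1A1 had 22.3, 20.7 and 23.3 in knockout lists and 39.1, 51.8 and 42.7 in wild-type lists. GUCY1B1 had 35.2, 46.2 and 34.8 in knockout lists and 75.6, 95.8 and 73.1 in wild-type lists. At both starts every knockout fold was below every wild-type fold. That held at 27 of the 29 segment starts called in all lists, at 55.9% of such starts in the rest of chromosome 4 and at 37.4% over all coding genes. The mean fold of GUCY1B1 was 38.7 ± 6.48 in knockout lists against 81.5 ± 12.4 in wild-type lists.

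Of the nuclear and RNA genes, 5 of 7 had a start called in all lists, against 56.2% of all coding genes. PLRG1, a spliceosome component, averaged 33.9 ± 3.97 in knockout lists and 68.1 ± 10.7 in wild-type lists. NEK1, a kinase of DNA repair and cilia, averaged 39.2 ± 2.98 in knockout lists and 74.4 ± 5.19 in wild-type lists. HPF1, a partner of the PARP enzymes of the DNA damage response, averaged 30.4 ± 3.93 in knockout lists and 53.6 ± 4.97 in wild-type lists. TMA16, linked to ribosome assembly in yeast, averaged 42.0 ± 1.33 in knockout lists and 65.4 ± 8.97 in wild-type lists, and MND1, needed for recombination in meiosis, 27.2 ± 2.86 in knockout lists and 47.5 ± 9.14 in wild-type lists. RBM46, a germ cell RNA-binding protein gene, had a peak in 1 wild-type list only, at 4.13.

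Of the 4 innate immune genes, 3 had a start called in all lists, against 56.2% of all coding genes. The starts of DDX60, an interferon-induced antiviral helicase, and of its paralog DDX60L averaged 26.4 ± 2.38 and 22.3 ± 4.85 in knockout lists, against 42.1 ± 2.26 and 29.8 ± 2.19 in wild-type lists. TLR2, the receptor for bacterial lipoproteins, was weak, with 6.32, 6.56 and 7.02 in knockout lists and 8.97, 8.99 and 7.54 in wild-type lists. The recorded starts of MARCHF1, a ubiquitin ligase that removes MHC class II and CD86 from the cell surface, had no peak in any list. Its body of 860 kb (chr4:163524298-164384019) held the most regions of any gene of the segment, 163, with 23, 28 and 35 peaks in knockout lists and 91, 75 and 105 in wild-type lists. Of those regions 12 were called in all 6 lists and 16 were WT-only. Over the whole segment, regions called in all 6 lists were 8.58% and WT-only regions 8.08%. Over all regions of the series these shares were 31.2% and 9.08%.

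Regions in the bodies of other long genes were counted too, and these counts are not scaled for length. Per 100 kb of body there were 28.9 regions in TRIM2, 26.9 in DCHS2, 21.8 in PDGFC and 19.0 in MARCHF1. PALLD had 12.5, FNIP2 11.5 and FSTL5 9.23, where the whole segment held 2972 regions in 18 Mb. DCHS2, a large cadherin gene of 260 kb, held 70 regions, with 8, 9 and 13 peaks in knockout lists and 44, 32 and 51 in wild-type lists, although its start had none. FSTL5, over 780 kb, held 72 regions, with 9, 10 and 11 peaks in knockout lists and 34, 33 and 45 in wild-type lists. TRIM2 and PALLD held 54 regions each. TRIM2 had 4, 6 and 5 peaks in knockout lists and 30, 22 and 36 in wild-type lists, and PALLD had 12, 14 and 16 in knockout lists and 35, 23 and 34 in wild-type lists. PDGFC, a platelet-derived growth factor gene, held 46 regions, with 5, 4 and 5 peaks in knockout lists and 21, 18 and 24 in wild-type lists. FNIP2 had 9, 9 and 8 peaks in knockout lists and 12, 13 and 13 in wild-type lists. The wild-type lists were longer as a whole, so lower body counts in knockout lists are not particular to these genes.

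Of the 7 neuropeptide Y receptor, receptor and channel genes, 4 had no start peak in any list, against 36.5% of all coding genes. CLCN3, an endosomal chloride and proton exchanger gene active in many tissues, averaged 36.3 ± 2.32 in knockout lists and 67.1 ± 11.4 in wild-type lists. The starts of GRIA2, GLRB (a glycine receptor subunit) and ASIC5 (an acid-sensing ion channel) had no peak in any list. Of the neuropeptide Y receptors, NPY1R had 9.33, 13.8 and 11.5 in knockout lists and 20.3, 23.3 and 17.8 in wild-type lists, NPY2R had a peak in 2 wild-type lists at 3.20 and 3.40, and NPY5R had none. The fibrinogen genes, which liver cells express for blood clotting, were near the calling threshold: FGB had no start peak, FGA had 1 in a single wild-type list at 3.65, and FGG had 3.09 in 1 knockout list and 4.70 and 3.77 in 2 wild-type lists.

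Of the 9 cytoskeleton and signalling genes, 7 had a start called in all lists (56.2% of all coding genes did), in order of wild-type fold MAP9, SH3RF1, RAPGEF2, PALLD, FNIP2, KLHL2 and RXFP1, and DCHS2 and ANXA10 had none. RAPGEF2, an exchange factor for the GTPase Rap1, had 24.4, 35.1 and 23.3 in knockout lists and 27.3, 33.3 and 35.2 in wild-type lists. KLHL2, an actin-binding adaptor of a ubiquitin ligase, had 18.1, 15.7 and 12.1 in knockout lists and 16.9, 19.2 and 24.1 in wild-type lists. These were the 2 genes called in all lists whose genotypes overlapped. SH3RF1, a scaffold and ubiquitin ligase of stress signalling, averaged 26.1 ± 5.16 in knockout lists and 36.3 ± 4.63 in wild-type lists. PALLD, an actin scaffold gene, averaged 15.9 ± 0.97 in knockout lists and 21.4 ± 2.61 in wild-type lists, and FNIP2, a folliculin partner, averaged 12.9 ± 4.17 in knockout lists and 20.5 ± 0.39 in wild-type lists. MAP9, a microtubule-associated protein gene, averaged 29.9 ± 4.89 in knockout lists and 45.7 ± 2.94 in wild-type lists, and RXFP1, the relaxin receptor, 5.95 ± 0.26 in knockout lists and 9.73 ± 1.66 in wild-type lists.

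TMEM192, a lysosomal membrane protein gene, had 54.5, 58.0 and 59.2 in knockout lists and 88.6, 103.5 and 79.8 in wild-type lists. TRIM2, a ubiquitin ligase gene of neurons, averaged 12.7 ± 0.87 in knockout lists and 25.3 ± 3.60 in wild-type lists, and TRIM61, a gene of the same family, averaged 21.2 ± 4.07 in knockout lists and 33.1 ± 4.04 in wild-type lists. TRIM75 had 0 calls in knockout lists and folds of 5.13, 5.59 and 4.4 in wild-type lists. SMIM31, a small membrane protein gene, had 0 calls in knockout lists and folds of 4.70, 4.37 and 5.66 in wild-type lists. TMEM144 and RNF175 had no start peak. Among the secreted protein genes FSTL5 averaged 19.2 ± 3.15 in knockout lists and 35.0 ± 4.43 in wild-type lists, and MFAP3L averaged 23.2 ± 5.19 in knockout lists and 40.6 ± 5.84 in wild-type lists. GASK1B was called in 2 knockout lists at 4.21 and 4.59 and in all wild-type lists at 8.69 ± 0.63, SPOCK3 was called in 2 lists of each genotype between 4.13 and 4.82, and SFRP2 (a Wnt antagonist), TLL1 (a metalloprotease) and CPE (carboxypeptidase E) had none. Outside the lists, C4orf46 averaged 54.1 ± 2.68 in knockout lists and 72.7 ± 10.5 in wild-type lists, APELA, a peptide hormone gene, averaged 4.56 ± 0.80 in knockout lists and 9.05 ± 1.5 in wild-type lists, and SPMIP2 and GK3 had no start peak.

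At 27 of the 29 starts called in all 6 lists (93.1%) every knockout fold was below every wild-type fold, and at 0 was every one above. The same held at 37.4% of all coding genes with a start called in all lists and at 55.9% (189 of 338) in the rest of chromosome 4. The median knockout fold was 62.7% of the wild-type fold in the segment (range 47.5% to 86.3%), 75.1% in the rest of the chromosome and 82.9% over all genes, so folds were lower in knockout lists in general. These folds are relative to a background that differs between libraries, and the ratios between segment and rest that follow are therefore taken within a list.

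**Figure D4:**
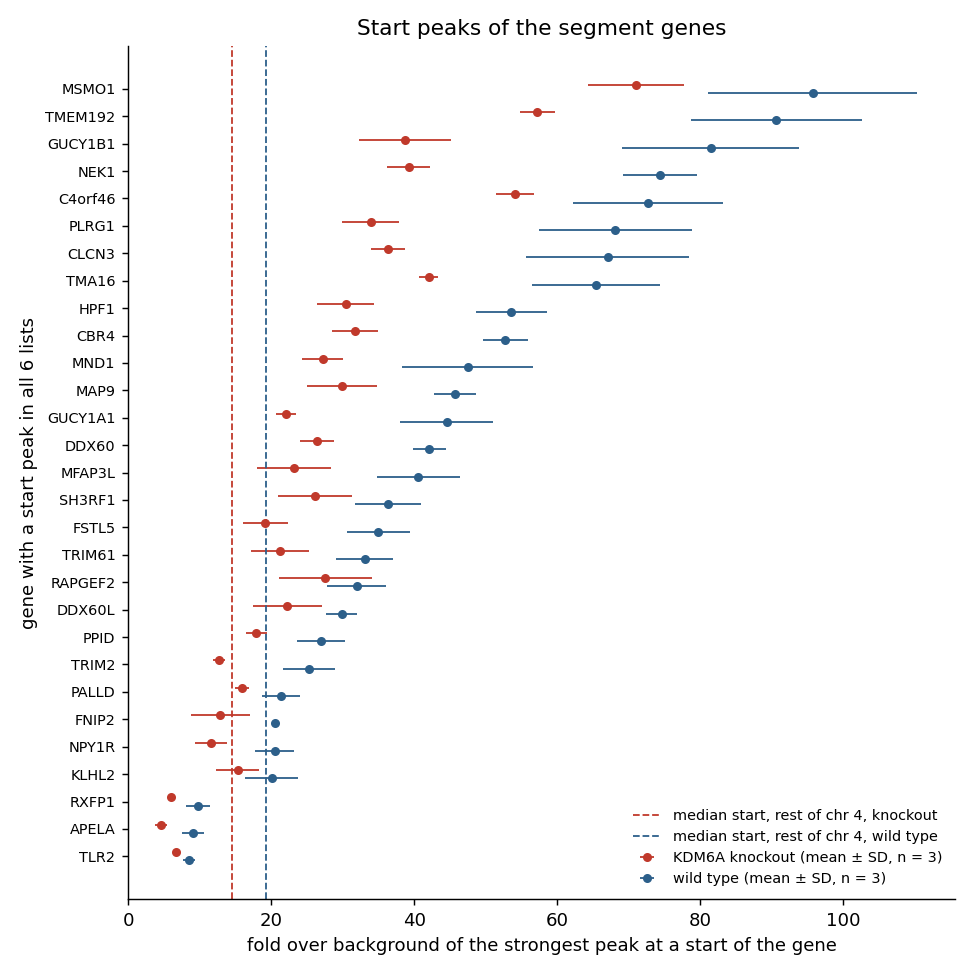
Fold over background of the strongest start peak (horizontal axis) for the 29 coding genes of the segment whose start is called in all 6 lists (vertical axis, ordered by wild-type mean), as mean ± SD of 3 knockout and 3 wild-type lists, with dashed lines at the mean over lists of the median start in the rest of chromosome 4. The dashed lines lie at 14.5 for knockout lists and 19.2 for wild-type lists, and MSMO1 has the highest fold in both genotypes at 71.1 in knockout lists and 95.8 in wild-type lists.

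Within each list, starts of the segment were stronger than starts elsewhere on the chromosome. The median over the 29 genes was 24.8 ± 2.85 in knockout lists and 39.0 ± 3.12 in wild-type lists, and over the 338 genes of the rest 14.5 ± 1.08 in knockout lists and 19.2 ± 2.12 in wild-type lists. The ratio was 1.71 ± 0.086 in knockout lists and 2.04 ± 0.18 in wild-type lists. Over regions at gene ends called in all lists, 31 in the segment and 339 in the rest, the ratio was 1.86 ± 0.13 in knockout lists and 2.14 ± 0.044 in wild-type lists. Its log2 averaged 0.89 in knockout lists and 1.09 in wild-type lists, a difference of −0.20 (SE 0.06) given as a description since the segment was chosen in the same lists. Without knockout replicate 1 it was −0.11, and against all other autosomes it was −0.37. The number of DNA copies of the segment was not measured, and its part in these ratios was not tested.

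Over all 255 regions of the segment called in 6 lists and 1082 of the rest, the ratio of median folds was 0.911 ± 0.038 in knockout lists, each below 1, and 1.06 ± 0.048 in wild-type lists, each above 1. The log2 difference was −0.22 (SE 0.05). The sides of 1 depended on which regions entered, while the ratio was lower in knockout lists throughout. With at least 50% of a region covered it was 1.41 in knockout lists and 1.58 in wild-type lists, with folds of 6 or more 1.13 in knockout lists and 1.33 in wild-type lists, and without knockout replicate 1 it was 0.81 in knockout lists and 0.952 in wild-type lists. At the 224 such regions away from gene ends the ratio was 0.981 ± 0.051 in knockout lists and 1.12 ± 0.018 in wild-type lists. Gene ends made up 31 of the 255 regions in the segment and 339 of the 1082 in the rest, so the 2 medians are over a different mix of sites.

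**Figure D5:**
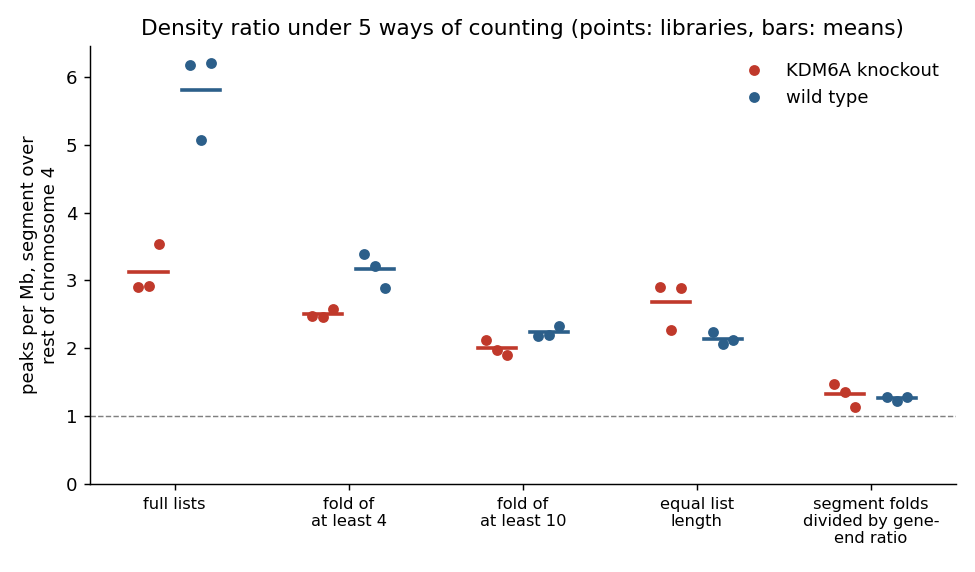
Peaks per Mb in the segment over the rest of chromosome 4 (vertical axis) under 5 ways of counting peaks (horizontal axis), with a point per list, a bar for the mean, knockout lists on the left and wild-type lists on the right. With full lists the means are 3.12 in knockout lists and 5.81 in wild-type lists, and with lists of equal length 2.69 in knockout lists and 2.14 in wild-type lists.

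The plot of ways of counting shows how much of the genotype difference lay in weak peaks. With a fold of at least 4 the density ratio was 2.51 in knockout lists and 3.17 in wild-type lists, and with at least 10 it was 2.00 in knockout lists and 2.24 in wild-type lists. At both limits every knockout list was below every wild-type list. The density was above that of the rest in every list and under every setting tried, down to 1.14 in knockout replicate 3 with folds divided by the gene-end ratio. The segment was chosen for its density in these same lists, so this is a description and no separate support. The direction between genotypes was shared with another dense segment, chromosome 11 from 88 to 94 Mb, whose ratio to the rest of its chromosome was 1.68 ± 0.037 in knockout lists and 2.76 ± 0.49 in wild-type lists, with every knockout list below every wild-type list. It was opposite in the dense segment of chromosome 2 from 9 to 14 Mb, with 19.3 ± 0.67 in knockout lists and 13.6 ± 0.27 in wild-type lists.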

How the data were processed

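ATAC-seq peak lists of 6 ARP1 libraries, 3 with KDM6A knocked out and 3 wild type, were grouped by sample title. Trimmomatic, FastQC, MultiQC, Bowtie2, MACS2 2.1.2 and GRCh38 are named in the submitters' processing notes, and their settings, any shift of reads for Tn5 cuts and any removal of duplicates are not stated there. Each library has a list of its own, and peaks were thus called library by library. Per the labels, reads were pairs of 150 bp.

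The deposited lists give for each peak a score, a fold (a ratio over background), a −log10 p-value, a −log10 q-value and a summit offset, as the authors' caller wrote them. The fold of a region is that of its strongest peak. Below a fold of 100, 100% of deposited folds were whole multiples of a step (tolerance 0.01), which gave each library's background pileup. The mitochondrial peak of each list was left out.

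Gene records and starts were RefSeq tables of GRCh38.p14, with a start called where a peak overlapped its window of 300 bases. Named genes are every coding gene of the segment by function list, and of 58 list genes 1 (ANP32C) was not among the table's coding genes. Named regions are the 10 strongest called in all 6 lists by percentile of −log10 p, the 5 strongest WT-only, any KO-only and those at the borders. The members and lists were chosen with earlier results of these data known. The genotype tests were exact permutations of all 20 labellings, two-sided (smallest p 0.1), with Benjamini-Hochberg adjustment over 4 comparisons. For the density ratio and both fold ratios, which draw on what chose the segment, only the difference is given. The gene-end share keeps its test, but its denominator is the segment's peak number, which also chose the segment. The code was tested on simulated data. Python 3.11.15, pandas 2.3.3, numpy 2.4.6, scipy 1.17.1 and matplotlib 3.10.9 were used.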

Additional observations from a re-analysis of the deposited data

Results flagged for a closer look

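At regions called in all 6 lists, the ratio of the median fold in the segment to that in the rest of chromosome 4 lay on opposite sides of 1 in the 2 genotypes. It was between 0.867 and 0.933 in the 3 knockout lists and between 1.02 and 1.11 in the 3 wild-type lists. The log2 difference of knockout minus wild type was −0.22, and this difference was not tested, since the segment was chosen in the same lists. At gene ends alone both genotypes were above 1, at 1.86 in knockout lists and 2.14 in wild-type lists. Both were also above 1 with at least 50% of a region covered (1.41 in knockout lists and 1.58 in wild-type lists), with folds of at least 6 (1.13 in knockout lists and 1.33 in wild-type lists) and with folds of at least 10 (1.16 in knockout lists and 1.38 in wild-type lists). Without knockout replicate 1 both were below 1, at 0.81 in the remaining knockout lists and 0.952 in the wild-type lists.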

How the results depend on the processing

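The genotype difference in density ratio (−0.90 on the log2 scale) reversed with lists of equal length (0.32). With segment folds divided by the gene-end fold ratio it was 0.057, and there the lists of the genotypes overlapped. The difference in gene-end share (3.87 points) was −0.28 with lists of equal length (exact permutation p = 0.8). Both kept their direction in the other settings tried, as the 2 differences in fold ratio did in all of them. The gene-end fold difference (−0.20) was −0.11 without knockout replicate 1, −0.37 against all other autosomes and −0.33 to −0.35 with the q limit, fold limits or equal length. The fold difference (−0.22) was −0.37 against all other autosomes, and the gene-end share difference 12.6 points with a fold of at least 10. The density ratio was 2.34 in knockout lists and 3.43 in wild-type lists with a −log10 q of at least 5, and under the other settings it was as follows. Knockout lists had 2.51 and wild-type lists 3.17 with a fold of at least 4, knockout 2.69 and wild type 2.14 with equal length, knockout 2.26 and wild type 5.05 against all other autosomes, and knockout 1.32 and wild type 1.27 with divided folds. In settings chosen after seeing the data, knockout lists had 1.96 and wild-type lists 2.18 with a fold of at least 6, and knockout 2.00 and wild type 2.24 with at least 10. With both borders moved inward by 4 Mb the wild-type ratio was 3.96. The WT-only share of 33.1% was 26.3% with the q limit, 19.4% with a fold of at least 4, 25.3% with at least 6, 6.69% with lists of equal length and 54.2% where a peak had to cover 50% of the region. It was 38.5% to 47.0% leaving out single libraries, since fewer lists then had to call or miss a region. The cause of the other changes was not tested.

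The replicate block, fitted as a paired sign-flip test, gave −0.90, −0.22, 3.87 and −0.20 for the 4 differences. For the gene-end share its exact p was 0.25, the smallest it allows. Correlations between same-numbered libraries were −0.021, 0.015 and −0.18 over 23589 regions, and between other-numbered ones from −0.12 to 0.13. With 3 libraries per genotype these values show no pairing by number but cannot settle whether the numbers pair the samples. Depth limits the lists: peaks had at least 9 or 10 reads in knockout libraries and 11 or 12 in wild-type libraries, so a WT-only call at a low fold does not show a lack of signal in knockout libraries.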
